A study of Mus musculus with 2 samples.

Results

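The 42 genes described here encode the enzymes and carriers that take glucose through glycolysis to lactate, through the pentose phosphate pathway, and through the pyruvate dehydrogenase complex into the tricarboxylic acid (TCA) cycle, together with Acod1, which opens the itaconate branch off the cycle. They were chosen by symbol, and all 42 were found among the 34745 genes listed. Messenger RNA had been measured in peritoneal macrophages of C57BL/6 mice, as 1 library labelled Kdm2b-/- and 1 labelled wild type (WT), collected 4 days after thioglycollate, a broth injected to recruit macrophages to the peritoneum. Cells of both libraries had received lipopolysaccharide (LPS), a bacterial cell wall component that activates macrophages, at 100 ng/ml, for 4 h by one label and 3 h by another, and no untreated library was used here. Kdm2b is a histone demethylase that binds unmethylated CG-rich DNA as part of a Polycomb complex. The ages of the mice, the number pooled in a library and how the allele was deleted, and in which cells, were not stated in the labels used here. With 1 library per group there was no spread between animals to compare with and no test, so every difference below is between these libraries.

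Glycolysis splits glucose into pyruvate in the cytosol, with hexokinase, phosphofructokinase and pyruvate kinase as its regulated steps, and lactate dehydrogenase turns pyruvate into lactate when flux is high. The pentose phosphate pathway branches off at glucose 6-phosphate and supplies NADPH and ribose, and the TCA cycle oxidises acetyl-CoA inside mitochondria. Macrophages given LPS are known for high glycolysis, for a cycle that is interrupted at isocitrate dehydrogenase and succinate dehydrogenase, and for making itaconate, an inhibitor of succinate dehydrogenase, from the cycle intermediate cis-aconitate.

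Levels of these genes were close in the 2 libraries, and none of the 42 differed by 1.5-fold. Levels are given in FPKM, fragments scaled to transcript length and to the size of the library, and each difference as the log2 ratio of the library labelled Kdm2b-/- over the WT library, computed from FPKM + 1. Of the 42, 41 passed a floor of 1 FPKM on the mean of both libraries; Pfkfb4, at 0.735 FPKM in the library labelled Kdm2b-/- and 0.867 FPKM in the WT library, did not. At 1.5-fold 0 of the 41 were higher and 0 were lower, where 4.7% of the 9038 genes past the floor were higher and 2.8% were lower. Among genes averaging at least 5 FPKM, a level that 36 of the 42 reached, 7.01% were 1.5-fold apart. The log2 ratios of the 41 ran from -0.49 for Mdh1 to 0.41 for Ogdh, with 20 above 0 and 21 below. Their median was -0.03, beside 0.10 over all genes past the floor, of which 63.2% lay above 0. Their SD was 0.20, beside 0.36 over all genes.

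At a smaller size of difference, a log2 ratio of 0.32, Ogdh and Hk2 were higher in the library labelled Kdm2b-/- and Mdh1 was lower. That size was passed upward by 20.7% and downward by 9.32% of all genes past the floor. Scaling the library labelled Kdm2b-/- by 0.915, which moved the median of all genes from 0.10 to 0, left the log2 ratio of Hk2 at 0.24, that of Ogdh at 0.29 and that of Mdh1 at -0.61, so that Mdh1 then passed 1.5-fold, where 4.28% of all genes past the floor were lower by that fold. With that scaling the count past a log2 ratio of 0.32 turned from 2 higher and 1 lower to 0 higher and 6 lower: Aldoa, Ldha, Idh2, Suclg1, Suclg2 and Mdh1 passed it downward, beside 11.9% of all genes upward and 15.8% downward. With equal library totals it was 5 higher and 1 lower. The direction of these 3 genes was the same under the 3 scalings tried. With the median at 0, Hk3, Pfkp, Pfkfb3, Gapdh, Pgam1, Pgd, Dlat, Dlst, Sdha and Mdh2 turned from slightly above to below 0, and with equal library totals Gpi1, Pfkl, Tkt and Pdhb turned to above 0, so the directions given for these genes below hold for the unscaled FPKM.

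Counting error was estimated from the number of fragments behind each value, which the low values of the files allowed. The exact 95% counting interval of the FPKM ratio lay above 1 for 11 of the 41 genes, below 1 for 16, and included 1 for 14. Over all genes past the floor, the interval lay above 1 for 42.3% and below 1 for 19.6%. These intervals cover counting error only, and where a gene has several transcripts they rest on the length chosen for it. That length was of the longest protein-coding transcript. Where shorter transcripts carry the reads, the fragments are overstated and the intervals too narrow.

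**Figure D1:**
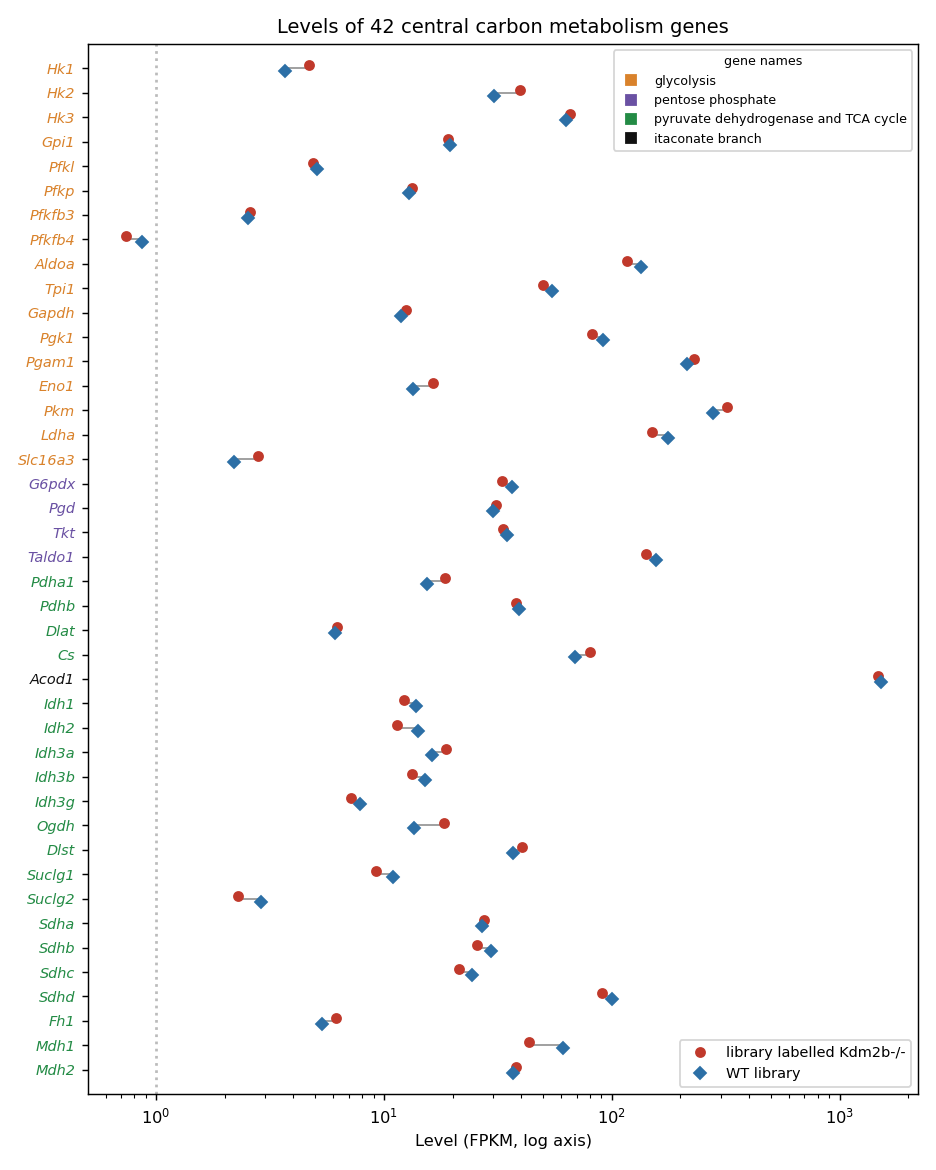
Level of each of the 42 genes in FPKM on a log axis, in pathway order, with red circles for the library labelled Kdm2b-/- and blue diamonds for the WT library. The symbols of a gene lie close together throughout, from Pfkfb4 under 1 FPKM (dotted line) to Acod1 at 1475 FPKM in the library labelled Kdm2b-/- and 1513 FPKM in the WT library.

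**Figure D2:**
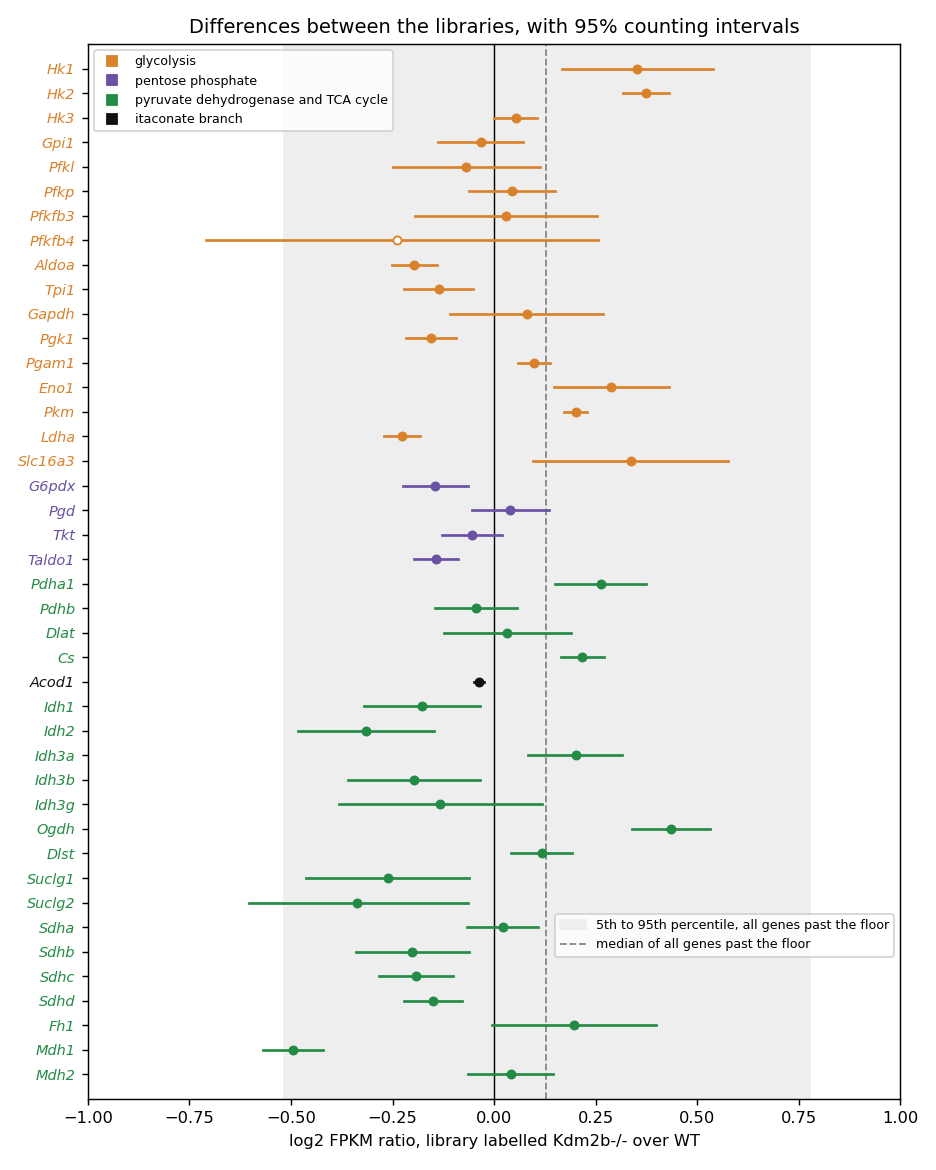
Difference of each gene as the log2 ratio of FPKM, the library labelled Kdm2b-/- over the WT library, with exact 95% counting intervals as bars; the open circle is Pfkfb4, which lay under the floor. Points scatter on both sides of 0 in each pathway of several genes, from Mdh1 at -0.50 to Ogdh at 0.43 on this scale.

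The library labels were first checked against the data. Kdm2b (ENSMUSG00000029475, chromosome 5, 122870665 to 122989823, GRCm38) was at 0.326 FPKM in the library labelled Kdm2b-/- and 0.205 FPKM in the WT library, from about 45 fragments in the library labelled Kdm2b-/- and 29 in WT, so the label is not borne out by a lower gene-level value; a deleted exon would not show in such a value. About 26800000 fragments lay behind the library labelled Kdm2b-/- and 27300000 behind the WT library. All 8 macrophage markers listed passed the floor, from 11.6 to 11409 FPKM in the library labelled Kdm2b-/- and from 12.02 to 8945 FPKM in WT. They did not share a direction. Adgre1 (log2 ratio 0.35), Lyz2 (0.35), Mertk (0.29) and Csf1r (0.25) were higher in the library labelled Kdm2b-/-, and Cd14 (-0.33) was lower. Cd68 (0.03), Itgam (-0.02) and Fcgr1 (-0.05) were nearly level. The 6 B cell markers summed to 2.86 FPKM in the library labelled Kdm2b-/- and 27.3 FPKM in WT, with Ighm and Igkc lower by more than 1.5-fold in the library labelled Kdm2b-/-. The 9 mesothelial and stromal markers, most of whose level is Dcn, summed to 374 FPKM in the library labelled Kdm2b-/- and 331 FPKM in WT, and did not share a direction: Col1a1, Col1a2 and Col3a1 were at least 1.5-fold higher in the library labelled Kdm2b-/-, Upk3b (log2 ratio 0.35) and Wt1 (0.44) were higher by less, Msln (-0.50), Krt19 (-0.31) and Lum (-0.35) were lower, and Dcn was level (0.02). Cd3e, Cd3d, Cd3g, Ly6g, Mpo and Retnlg were listed at 0 in both. Other neutrophil markers were not: S100a8 was at 14.6 FPKM in the library labelled Kdm2b-/- and 13.8 FPKM in WT. S100a9 was at 0.256 FPKM in the library labelled Kdm2b-/- and 0.453 FPKM in WT. Siglecf, an eosinophil marker, was at 0.533 FPKM in the library labelled Kdm2b-/- and 1.58 FPKM in WT (log2 ratio -0.75). The part of these other cells in the values below was not tested, and in such mixed RNA fewer cells of a type and less RNA per cell cannot be told apart.

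Acod1, which encodes the cis-aconitate decarboxylase that makes itaconate, was the most abundant of the 42 genes by a wide margin and was nearly equal in the 2 libraries. Acod1 (ENSMUSG00000022126, chromosome 14, 103046977 to 103056573) stood at 1475 FPKM in the library labelled Kdm2b-/- and 1513 FPKM in the WT library. It ranked 34th among all genes in the library labelled Kdm2b-/- and 40th in WT, above every glycolytic and TCA cycle gene. The log2 ratio was -0.04, with about 103713 fragments in the library labelled Kdm2b-/- and 108230 in WT behind it, and counting limits of -0.05 and -0.02. Its sign changed with the scaling: the log2 ratio was -0.16 with the median of all genes set to 0 and 0.06 with equal library totals.

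Because Kdm2b binds CG-rich DNA, the upstream bases of a CG-poor and a CG-rich member, Acod1 and Hk2, are shown (RefSeq, GRCm38.p6) with each CG dinucleotide in capitals. Acod1 is read on the plus strand at chr14:103046762-103046976, where 215 bases held 1 CG, and Hk2 on the minus strand at chr6:82774455-82774704, where 250 bases held 25. The Acod1 stretch ends before the earlier of its RefSeq and GENCODE starts; its whole RefSeq window of 250 bases held 2 CG.
Acod1: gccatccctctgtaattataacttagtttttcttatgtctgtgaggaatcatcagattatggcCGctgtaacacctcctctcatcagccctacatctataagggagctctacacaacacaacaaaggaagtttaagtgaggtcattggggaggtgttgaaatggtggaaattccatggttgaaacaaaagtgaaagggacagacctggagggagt
Hk2: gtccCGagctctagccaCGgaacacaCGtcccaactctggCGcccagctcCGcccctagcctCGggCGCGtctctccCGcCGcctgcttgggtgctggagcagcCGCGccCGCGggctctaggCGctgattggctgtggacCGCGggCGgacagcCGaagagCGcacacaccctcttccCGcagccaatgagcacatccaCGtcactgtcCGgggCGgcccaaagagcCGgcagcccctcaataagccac
Among the 250 bases upstream of each RefSeq start, the 55 windows of 40 matched members had a median of 16 CG dinucleotides and a range of 0 to 35, beside a median of 6 over all 32851 windows. Idh3a and Sdhc had no window in the table. The core letters ACGTG, which the hypoxia-inducible factor recognises, were searched on both strands; each match also holds a CG. They were present in 40% of the members' windows and in 16.6% of all windows. Windows of 1 gene can overlap, as those of Ogdh did. Counted by gene, 15 of the 40 members had a match, beside 4998 of all 27025 genes. Acod1 had 1 such match in its whole RefSeq window, but 0 in the 215 bases shown. Hk2 had 2 and Ldha 5 in its CG-richest window. A match is a description and not a site in use. Of the genes with CG-rich windows, Hk2 (25 CG) had a log2 ratio of 0.36 and Sdhd (27 CG) of -0.15. With the trend in transcript length and GC content removed, Hk2 stood at 0.19 and Sdhd at 0.11, beside a median of 0.10 for all genes. A relation between CG count and log2 ratio was not tested.

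Glycolytic genes lay on both sides of 0, with 10 of 16 past the floor above it, or 5 of 16 with the median of all genes set to 0, and a median log2 ratio of 0.05. The first steps, where glucose is trapped and committed, were led in level by Hk3 and Hk2, which encode hexokinases that phosphorylate glucose. Hk3 stood at 65.6 FPKM in the library labelled Kdm2b-/- and 63.2 FPKM in the WT library (log2 ratio 0.05). Hk2, the inducible hexokinase, stood at 39.5 FPKM in the library labelled Kdm2b-/- and 30.5 FPKM in WT (log2 ratio 0.36), with a counting interval of the FPKM ratio of 0.32 to 0.43 on the log2 scale. Hk1, the form found in most tissues, was low at 4.68 FPKM in the library labelled Kdm2b-/- and 3.66 FPKM in WT (log2 ratio 0.28). All 3 hexokinase genes were thus higher in the library labelled Kdm2b-/- before scaling, although the interval of Hk3 included 0 and Hk3 turned to -0.07 with the median of all genes at 0.

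Within the hexokinase sum, a quantity that does not depend on how libraries are scaled, Hk2 made up 35.98% in the library labelled Kdm2b-/- and 31.3% in the WT library. Hk3 made up 59.8% in the library labelled Kdm2b-/- and 64.9% in WT, and Hk1 4.26% in the library labelled Kdm2b-/- and 3.76% in WT. The odds ratio of Hk2 against the other 2, from estimated fragments, was 1.23 with an exact 95% interval of 1.17 to 1.296. Hk2 has the longest transcript of the 3, 5513 bases, and longer transcripts had higher ratios in general (see the plot against transcript length).

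Phosphofructokinase, the committing step of glycolysis, was nearly equal in the 2 libraries. Pfkp, the platelet-type subunit, stood at 13.3 FPKM in the library labelled Kdm2b-/- and 12.9 FPKM in the WT library (log2 ratio 0.04). Pfkl, the liver-type subunit, stood at 4.86 FPKM in the library labelled Kdm2b-/- and 5.10 FPKM in WT (log2 ratio -0.06). Pfkp made up 68.0% of the sum of the 3 subunit genes in the library labelled Kdm2b-/- and 66.4% in WT, and Pfkm 6.99% in the library labelled Kdm2b-/- and 7.18% in WT. The odds-ratio interval of each of the 3 included 1. Pfkfb3, whose product makes the fructose 2,6-bisphosphate that activates phosphofructokinase, was at 2.58 FPKM in the library labelled Kdm2b-/- and 2.53 FPKM in WT (log2 ratio 0.02). Gpi1, the isomerase between hexokinase and phosphofructokinase, stood at 19.1 FPKM in the library labelled Kdm2b-/- and 19.5 FPKM in WT (log2 ratio -0.03).

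The later steps of glycolysis held the most abundant enzyme genes, and neighbouring steps differed in direction. Aldoa, which encodes aldolase, stood at 117 FPKM in the library labelled Kdm2b-/- and 134 FPKM in the WT library (log2 ratio -0.20). Tpi1, the triose phosphate isomerase, stood at 49.8 FPKM in the library labelled Kdm2b-/- and 54.7 FPKM in WT (log2 ratio -0.13), and Pgk1, a kinase that yields ATP, at 82.2 FPKM in the library labelled Kdm2b-/- and 91.5 FPKM in WT (log2 ratio -0.15). These 3 were slightly lower in the library labelled Kdm2b-/-, while Gapdh, between Tpi1 and Pgk1, was at a log2 ratio of 0.07. Without the trend in length and GC, Tpi1 stood at -0.03, Pgk1 at -0.04 and Aldoa at -0.16. The steps after Pgk1 went the other way before scaling. Pgam1, the phosphoglycerate mutase, was at 230 FPKM in the library labelled Kdm2b-/- and 215 FPKM in WT (log2 ratio 0.10). Eno1, enolase, was at 16.5 FPKM in the library labelled Kdm2b-/- and 13.5 FPKM in WT (log2 ratio 0.27). Pkm, pyruvate kinase, was second to Acod1 at 319 FPKM in the library labelled Kdm2b-/- and 277 FPKM in WT (log2 ratio 0.20), with a counting interval of 0.17 to 0.23; its gene-level value does not separate its spliced forms.

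At the lactate end of the pathway, the enzyme gene was lower and the exporter gene higher in the library labelled Kdm2b-/-. The exporter was under the median of all genes, 0.10, once the trend with transcript length and GC was removed. Ldha, lactate dehydrogenase A, stood at 150 FPKM in the library labelled Kdm2b-/- and 176 FPKM in the WT library (log2 ratio -0.23, counting interval -0.27 to -0.18). Slc16a3, the lactate exporter MCT4, was low at 2.79 FPKM in the library labelled Kdm2b-/- and 2.21 FPKM in WT (log2 ratio 0.24), and at 0.03 on the log2 scale without the length and GC trend. The summed level of the 17 glycolytic genes was 1130 FPKM in the library labelled Kdm2b-/- and 1114 FPKM in the WT library.

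Several glycolytic genes have near-identical copies in the annotation. The division of reads among copies is not described in the labels, so these values are uncertain. Gapdh, the glyceraldehyde phosphate dehydrogenase gene, was at 12.5 FPKM in the library labelled Kdm2b-/- and 11.8 FPKM in WT (log2 ratio 0.07), under Tpi1 and Pgk1, the enzymes on either side of it. The annotation holds 77 other genes with at least 300 bases of 95% identity to Gapdh, of which 6 are listed in the files, summing to 0.374 FPKM in the library labelled Kdm2b-/- and 0.421 FPKM in WT. Eno1 has a copy, Eno1b, at 24.5 FPKM in the library labelled Kdm2b-/- and 20.2 FPKM in WT; their sum had a log2 ratio of 0.27, as Eno1 alone. Summing listed copies moved Tpi1 from -0.13 to -0.01, Pgam1 from 0.10 to 0.05 and Gpi1 from -0.03 to 0.05.

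Genes of the pentose phosphate pathway were slightly lower or equal in the library labelled Kdm2b-/-, with a median log2 ratio of -0.10 over 4 genes. Taldo1, transaldolase of the non-oxidative arm, was the most abundant at 142 FPKM in the library labelled Kdm2b-/- and 156 FPKM in the WT library (log2 ratio -0.14). G6pdx, the glucose 6-phosphate dehydrogenase that starts the oxidative arm, stood at 33.0 FPKM in the library labelled Kdm2b-/- and 36.5 FPKM in WT (log2 ratio -0.14), and its counting interval of -0.22 to -0.06 lay below 0. Pgd, the second NADPH-yielding enzyme, stood at 31.0 FPKM in the library labelled Kdm2b-/- and 30.1 FPKM in WT (log2 ratio 0.04), and Tkt, transketolase, at 33.4 FPKM in the library labelled Kdm2b-/- and 34.7 FPKM in WT (log2 ratio -0.05). The intervals of Pgd and Tkt included 0, so these were not told apart at this depth. Without the trend in length and GC, Taldo1 stood at -0.01, G6pdx at -0.16, Tkt at -0.17 and Pgd at 0.03.

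The pyruvate dehydrogenase complex links glycolysis to the cycle, and its subunit genes had unlike ratios. Pdha1, the E1 alpha subunit, stood at 18.6 FPKM in the library labelled Kdm2b-/- and 15.5 FPKM in the WT library (log2 ratio 0.25). Its partner Pdhb, the E1 beta subunit, stood at 37.9 FPKM in the library labelled Kdm2b-/- and 39.1 FPKM in WT (log2 ratio -0.04), and Dlat, the E2 subunit, at 6.24 FPKM in the library labelled Kdm2b-/- and 6.10 FPKM in WT (log2 ratio 0.03). Pdha1 was the one of the 3 with a counting interval clear of 0, at 0.15 to 0.37. Cs, citrate synthase, which feeds acetyl-CoA into the cycle, was among the most abundant cycle genes at 80.4 FPKM in the library labelled Kdm2b-/- and 69.2 FPKM in WT (log2 ratio 0.21, interval 0.16 to 0.27).

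Isocitrate dehydrogenase genes were lower in 4 of 5 cases, each by less than 0.32 on the log2 scale. Over all genes past the floor, 63.2% lay above 0. The counting interval of Idh3g, -0.38 to 0.12, included 0. Without the trend in length and GC, Idh3g turned to 0.05, Idh1 and Idh3b stood at -0.06 each, and Idh2 at -0.21. Idh1, the cytosolic NADP-dependent enzyme, stood at 12.3 FPKM in the library labelled Kdm2b-/- and 13.9 FPKM in the WT library (log2 ratio -0.16), and Idh2, its mitochondrial counterpart, at 11.4 FPKM in the library labelled Kdm2b-/- and 14.1 FPKM in WT (log2 ratio -0.29). Of the NAD-dependent enzyme of the cycle, Idh3a, the catalytic subunit, was the exception at 18.8 FPKM in the library labelled Kdm2b-/- and 16.3 FPKM in WT (log2 ratio 0.19). Its partners were Idh3b at 13.2 FPKM in the library labelled Kdm2b-/- and 15.2 FPKM in WT (log2 ratio -0.18) and Idh3g at 7.13 FPKM in the library labelled Kdm2b-/- and 7.82 FPKM in WT (log2 ratio -0.12). Idh3a made up 47.9% of the FPKM sum of these 3 subunits in the library labelled Kdm2b-/- and 41.5% in the WT library. The odds ratio of Idh3a against the others was 1.299 (exact 95% interval 1.15 to 1.47, counting error only). Its transcript, at 2580 bases, is longer than the 1616 bases of Idh3b and the 1331 bases of Idh3g.

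The next steps of the cycle held the highest ratio of the 42 genes and the lowest level of the cycle. Ogdh, the E1 subunit of the 2-oxoglutarate dehydrogenase complex (ENSMUSG00000020456, chromosome 11, 6291633 to 6356642), stood at 18.3 FPKM in the library labelled Kdm2b-/- and 13.6 FPKM in the WT library (log2 ratio 0.41, counting interval 0.34 to 0.53). Dlst, the E2 subunit of the same complex, stood at 40.1 FPKM in the library labelled Kdm2b-/- and 37.0 FPKM in WT (log2 ratio 0.11). The ratio of Ogdh to Dlst was 0.457 in the library labelled Kdm2b-/- and 0.366 in the WT library. Succinyl-CoA ligase genes lay on the other side: Suclg1, the shared alpha subunit, stood at 9.19 FPKM in the library labelled Kdm2b-/- and 11.01 FPKM in WT (log2 ratio -0.24). Suclg2, the GTP-forming beta subunit, stood at 2.28 FPKM in the library labelled Kdm2b-/- and 2.88 FPKM in WT (log2 ratio -0.24). Without the trend in length and GC, Suclg1 stood at -0.08 and Suclg2 at -0.25. The other beta subunit gene, Sucla2, is outside the 42. It had a log2 ratio of -0.11, with a counting interval of -0.30 to 0.05, and stood at -0.01 without the trend.

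Succinate dehydrogenase, which is also complex II of the respiratory chain, had 1 subunit gene level with the WT library and 3 slightly lower. Sdha, the flavoprotein subunit, stood at 27.4 FPKM in the library labelled Kdm2b-/- and 27.0 FPKM in the WT library (log2 ratio 0.02). Sdhb, the iron-sulfur subunit, stood at 25.7 FPKM in the library labelled Kdm2b-/- and 29.5 FPKM in WT (log2 ratio -0.19), and the membrane anchor genes were Sdhc at 21.4 FPKM in the library labelled Kdm2b-/- and 24.4 FPKM in WT (log2 ratio -0.18) and Sdhd at 90.5 FPKM in the library labelled Kdm2b-/- and 100.5 FPKM in WT (log2 ratio -0.15). The intervals of Sdhb, Sdhc and Sdhd lay below 0. With the trend in transcript length and GC content removed, Sdhb stood at 0.02 and Sdhd at 0.11, while Sdhc stayed at -0.25. Fh1, fumarase, stood at 6.14 FPKM in the library labelled Kdm2b-/- and 5.35 FPKM in WT (log2 ratio 0.17), with an interval of -0.0041 to 0.40.

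Malate dehydrogenase gave the largest difference among the 42 genes, in its cytosolic form, while the mitochondrial form was close; with equal library totals Ogdh, at 0.50, was further from 0 than Mdh1, at -0.39. Mdh1, the cytosolic enzyme (ENSMUSG00000020321, chromosome 11, 21556787 to 21572367), stood at 43.2 FPKM in the library labelled Kdm2b-/- and 60.9 FPKM in the WT library, from about 2457 fragments in the library labelled Kdm2b-/- and 3522 in WT. Its log2 ratio was -0.49, with a counting interval of the FPKM ratio of -0.57 to -0.42. Mdh2, the mitochondrial enzyme of the cycle, stood at 38.1 FPKM in the library labelled Kdm2b-/- and 37.0 FPKM in WT (log2 ratio 0.04). Mdh1 made up 53.2% of the sum of both in the library labelled Kdm2b-/- and 62.2% in the WT library (odds ratio 0.690, exact 95% interval 0.631 to 0.754). On the FPKM + 1 scale, Mdh1 was outside the range from the 5th to the 95th percentile of all genes, -0.44 to 0.57. The other 40 genes past the floor were inside it. On the plain FPKM ratio that range was -0.52 to 0.78, and Mdh1, at -0.50, was inside it as well. Mdh1 overlaps other annotated genes on both strands, and strand was not recorded in the libraries' description. Such overlap was not particular to Mdh1: of the 42 genes, 6 overlapped another on the same strand and 15 on the other strand. There were 23 with no overlap.

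**Figure D3:**
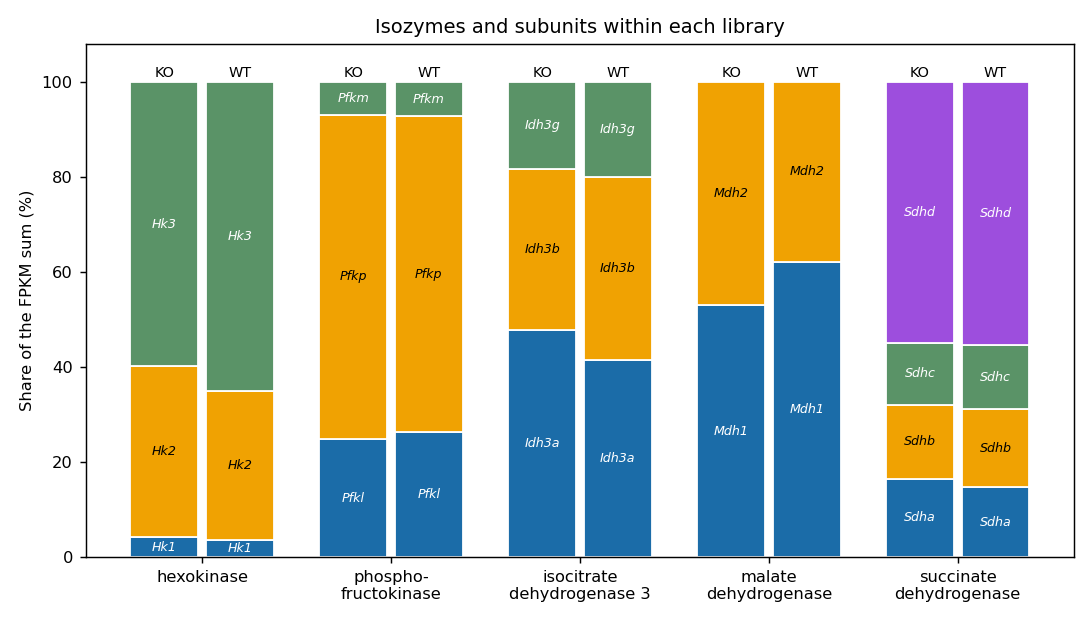
Share of each isozyme or subunit gene in the FPKM sum of its enzyme, in percent, with the library labelled Kdm2b-/- (KO) left of the WT library (WT). Mdh1 made up 53.2% of malate dehydrogenase in KO and 62.2% in WT, and Hk2 35.98% of hexokinase in KO and 31.3% in WT, while Pfkp made up 68.0% of phosphofructokinase in KO and 66.4% in WT.

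Differences among these genes went with transcript length, as they did over the whole table. All 7 members with transcripts of at least 4000 bases had log2 ratios above 0, with a median of 0.24, beside 0.25 for all genes of that length. Of the 15 members under 2000 bases, 12 lay below 0, with a median of -0.15, beside -0.11 for all such genes. The 19 members between these lengths had 10 above 0 and 9 below. Their median was 0.02, beside 0.12 for all genes of such length. Spearman's rho between log2 ratio and length was 0.47 over the 41 members and 0.50 over 9016 genes; genes of 1 pair of libraries are not independent, and this is a description. With the trend in length and GC content removed, the members had a median of -0.01, with 20 above 0 and 21 below, beside 0.10 for all genes. Mdh1 then stood at -0.36, Ogdh at 0.30 and Hk2 at 0.19, and the range of the 41 was -0.36 to 0.30.

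**Figure D4:**
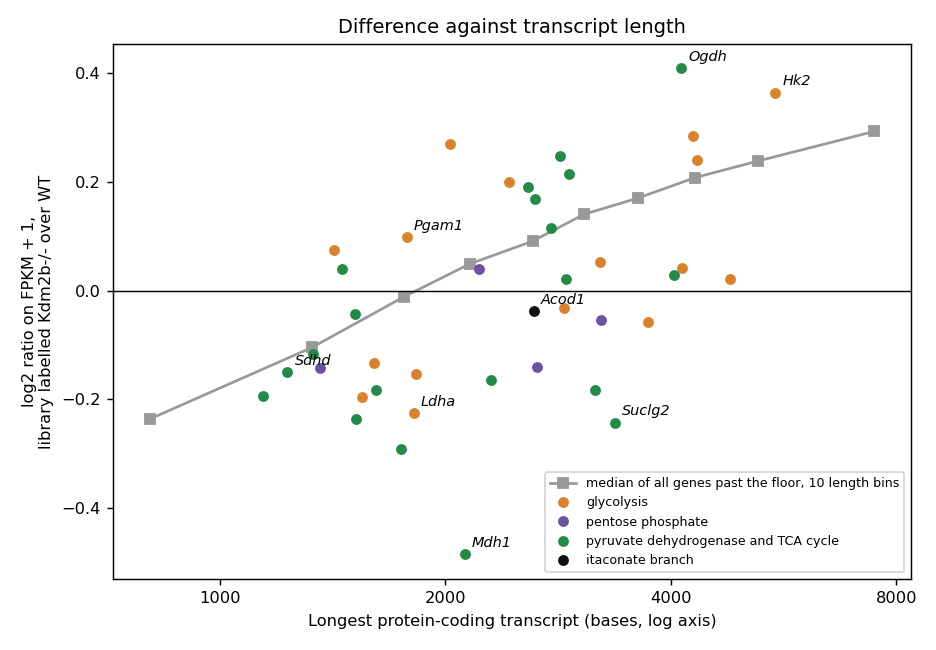
Log2 ratio on FPKM + 1, the library labelled Kdm2b-/- over the WT library, against the longest protein-coding transcript in bases on a log axis, for the 41 genes past the floor (coloured by pathway) and the medians of all genes past the floor in 10 bins of length (grey squares). Members rise with length, from a median of -0.15 under 2000 bases, through 0.02 from there to under 4000, to 0.24 at 4000 bases or more. Mdh1 lies well below the grey line.

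Another 67 genes of the same pathways covered glucose and pyruvate transporters, regulators, further isozymes and the shuttle carriers. Among the 47 past the floor, 2 were at least 1.5-fold apart, 1 higher and 1 lower. Over all genes past the floor, 4.7% were higher and 2.8% lower by that fold. The SD of the 47 log2 ratios was 0.30, beside 0.20 for the 41 members and 0.36 over all genes. Of the 47 past the floor, 27 lay above 0 and 20 below, with a median of 0.07, beside the 63.2% of all genes that lay above 0. With the median of all genes set to 0, 20 lay above and 27 below, with a median of -0.04. Mpc1, a subunit of the mitochondrial pyruvate carrier, was more than 2-fold lower: it stood at 7.89 FPKM in the library labelled Kdm2b-/- and 21.3 FPKM in the WT library (log2 ratio -1.33, counting interval of the FPKM ratio -1.68 to -1.20, from about 203 fragments in the library labelled Kdm2b-/- and 559 in WT). At 2-fold, 1.02% of all genes past the floor were lower. Its partner subunit Mpc2 stood at 3.54 FPKM in the library labelled Kdm2b-/- and 3.99 FPKM in WT (log2 ratio -0.14). Mpc1 stood at -1.01 once the trend with length and GC was taken out. It overlaps 4930506C21Rik on the other strand, which was listed at 0 in both.

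H6pd, the glucose 6-phosphate dehydrogenase of the endoplasmic reticulum, was at least 1.5-fold higher, at 10.1 FPKM in the library labelled Kdm2b-/- and 6.20 FPKM in the WT library (log2 ratio 0.63). With the median of all genes set to 0 it stood at 0.51, and without the length and GC trend at 0.41, under 1.5-fold in both cases. Of the glucose transporter genes, Slc2a1 was at 15.2 FPKM in the library labelled Kdm2b-/- and 12.2 FPKM in WT. Its log2 ratio was 0.30, with a counting interval of the FPKM ratio of 0.20 to 0.44. Slc2a6, the more abundant here, was at 63.4 FPKM in the library labelled Kdm2b-/- and 61.0 FPKM in WT. Its log2 ratio was 0.06, with an interval of -0.01 to 0.12.

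**Figure D5:**
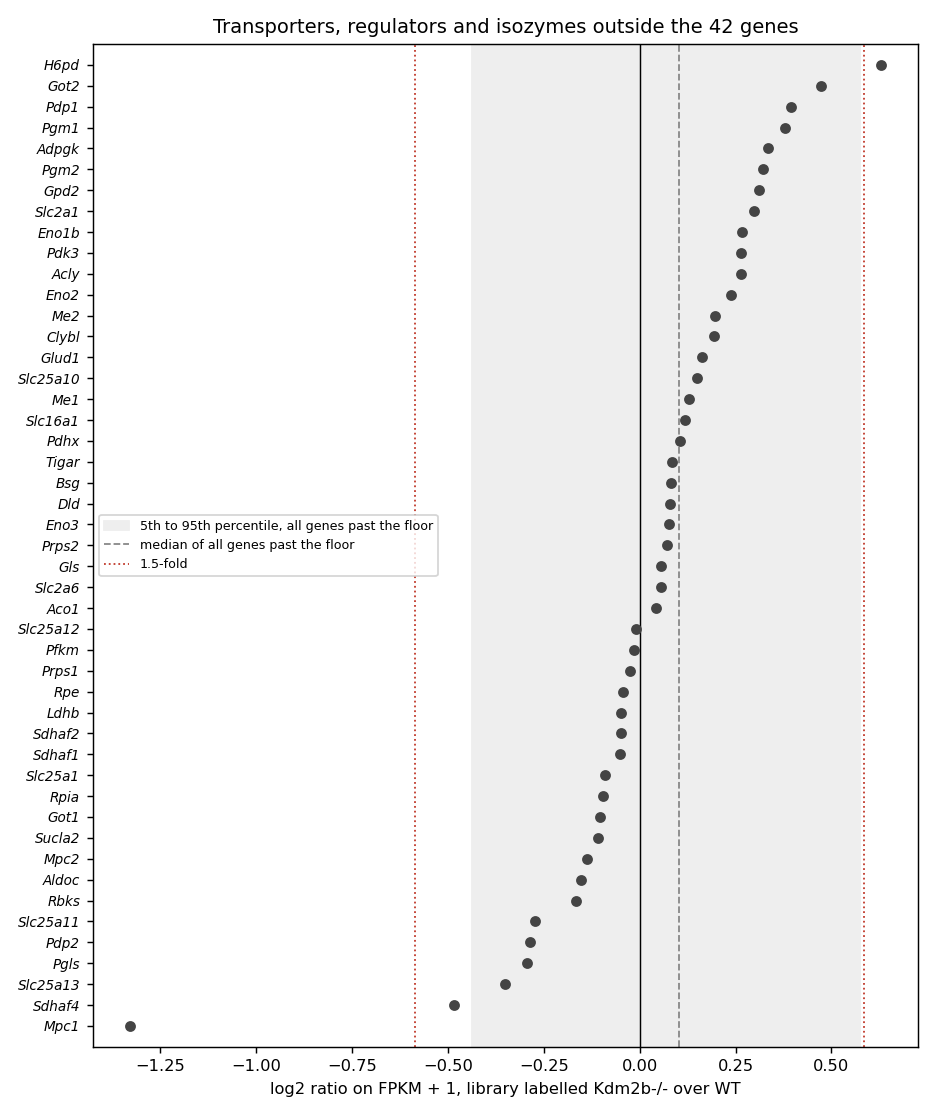
Log2 ratio on FPKM + 1, the library labelled Kdm2b-/- over the WT library, for the 47 further pathway genes past the floor, sorted by value; the grey band spans the 5th to the 95th percentile of all genes past the floor and dotted lines mark 1.5-fold. Mpc1 at -1.33 and H6pd at 0.63 lie beyond the dotted lines.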

How the data were processed

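Per the file headers, the values the authors deposited are FPKM, 1 per Ensembl gene and library. HISAT2 2.0.4, StringTie 1.3.0, edgeR and the builds GRCm38.p4 and mm10 appear in the submitters' processing notes, without roles, annotation release or filters. FPKM divides by length and library size, so the most abundant genes, or RNA broken to different sizes, can move all values. Symbols, positions and transcript lengths came from GENCODE M21 (GRCm38), with a symbol for 34267 of the IDs; length was that of the longest protein-coding transcript. Fragments were recovered from the low values of single-transcript genes, where FPKM times length was a whole multiple of 1 step, within 0.02 of a fragment, for 92.5% of 1508 genes in the library labelled Kdm2b-/- and 92.2% of 1456 in the WT library. Intervals are exact (Clopper-Pearson for ratios, conditional for odds ratios; scipy 1.17.1) and hold counting error alone, as PCR duplicates are not separate molecules. Log2 ratios used a pseudocount of 1 and a floor of 1 FPKM on the mean of both libraries; genes were called by fold alone, and no p-value was computed. Copies were sought with BLAST 2.17.0. The length and GC trend was removed with the medians of 20 bins each. The median of all genes past the floor was then put back, so values without the trend are centred on 0.10 and not on 0. The calculations were tested on simulated data. All 42 members were named, and of 67 other pathway genes those at least 1.5-fold apart; 1 more gene of the list was left out of the counts and is not reported here; further genes were named with their values in view. The members and lists were chosen with earlier results of these data known.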

Additional observations from a re-analysis of the deposited data

How the results depend on the processing

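No paired analysis was possible because each group has 1 library. Leaving out a library was likewise not possible. With the median of all genes scaled to 0, 1 member, Mdh1, was at least 1.5-fold lower, and the medians were -0.15 for all members, -0.072 for glycolysis, -0.22 for the pentose phosphate pathway and -0.20 for pyruvate dehydrogenase and the TCA cycle, with Acod1 at -0.16. With equal upper quartiles Acod1 stood at -0.10. With equal totals Acod1 stood at 0.056 and the pentose phosphate median at -0.0057. At a log2 ratio of 0.32 the counts were 2 higher and 1 lower as reported, 0 higher and 6 lower with the median scaled, 1 higher and 2 lower with upper quartiles, 5 higher and 1 lower with equal totals, 0 higher and 1 lower without the length and GC trend, and 4 higher and 2 lower with a pseudocount of 0.1; these counts were added after the data were seen. Of the other 41 single genes, 10 turned from above to below 0 with the median scaled, 7 with upper quartiles, 4 turned upward with equal totals, and 8 turned without the length and GC trend; the pseudocounts of 0.1 and 5 turned 0. A floor of 5 FPKM or none left the counts at 1.5-fold at 0. Isozyme shares from estimated fragments moved by up to 13.1 points from those in FPKM, since longer transcripts give more fragments. Summing near-identical copies was added after the data were seen. Depth left 14 of the 41 FPKM ratios within counting error of 1.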

Other observations

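The malate-aspartate shuttle, which carries reducing equivalents between cytosol and mitochondria, had genes on both sides of 0; its genes were grouped after their values were seen and are given as values. Got1, the cytosolic aspartate aminotransferase, stood at 14.2 FPKM in the library labelled Kdm2b-/- and 15.3 FPKM in the WT library (log2 ratio -0.10), and Got2, the mitochondrial one, at 27.5 FPKM in the library labelled Kdm2b-/- and 19.5 FPKM in WT (log2 ratio 0.47). Got2 has a listed near-identical copy, and with it summed the log2 ratio was 0.46. The carrier genes were Slc25a11 at 30.6 FPKM in the library labelled Kdm2b-/- and 37.2 FPKM in WT (log2 ratio -0.27), Slc25a12 at 2.70 FPKM in the library labelled Kdm2b-/- and 2.73 FPKM in WT (log2 ratio -0.01) and Slc25a13 at 2.43 FPKM in the library labelled Kdm2b-/- and 3.37 FPKM in WT (log2 ratio -0.35).

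Enzymes that act on pyruvate dehydrogenase itself differed in direction. Pdp1, a phosphatase that activates the complex, stood at 2.84 FPKM in the library labelled Kdm2b-/- and 1.92 FPKM in the WT library (log2 ratio 0.39), and Pdp2, of the same function, at 1.39 FPKM in the library labelled Kdm2b-/- and 1.91 FPKM in WT (log2 ratio -0.29). Pdk3, the most abundant kinase that inactivates it here, stood at 7.70 FPKM in the library labelled Kdm2b-/- and 6.24 FPKM in WT (log2 ratio 0.26). Sdhaf4, an assembly factor of succinate dehydrogenase with a short transcript of 683 bases, stood at 9.59 FPKM in the library labelled Kdm2b-/- and 13.8 FPKM in WT (log2 ratio -0.49), or -0.07 without the trend in length and GC.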
